A study of Mus musculus with 16 samples.

Results

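The data described here are the genes of antigen presentation by the major histocompatibility complex (MHC) in primary podocytes, the filtration cells of the kidney glomerulus, with and without the mTORC1 inhibitor TSC2. The members were 10 mouse genes, taken as every non-control array probe whose transcript identifier mapped to *H2-Ab1*, *H2-Aa*, *H2-Eb1*, *H2-DMa*, *Cd74* or *Ciita* for class II, and to *B2m*, *H2-K1*, *H2-D1* or *Tap1* for class I. They had 16 probes, of the 32994 probes that were matched to 22911 genes in all. The class II members had 10 of these probes and the class I members 6.

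The 16 one-colour arrays held RNA of cells grown out of glomeruli that had been isolated with magnetic beads from male Jcl:ICR mice, 4 arrays in each of 4 groups. *Tsc2*Δ*podocyte* mice carried homozygous floxed *Tsc2* alleles together with a Cre transgene that is active in podocytes. The *Tsc2*flox/flox controls carried the same floxed alleles without Cre. Both genotypes were sampled untreated at 4 weeks of age and at 5 weeks of age, 1 week after rapamycin, an mTORC1 inhibitor that had been injected into the mice. Jcl:ICR is an outbred stock, and how well each probe matches the MHC alleles of these animals is not known here. The methods state that nearly all cells of such cultures stained for the podocyte marker WT1, but do not name the others. In such bulk RNA fewer cells of a type and less RNA per cell cannot be told apart. Nothing says that the samples of a group are from different animals, and the p-values then reflect only how far these samples vary, technical variation included. All untreated samples were on slide 1 and all treated samples on slide 2, so slide, age and rapamycin cannot be told apart. Position on the slide and genotype cannot be told apart either, since the controls always lay in row 2 and the other genotype in row 1.

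MHC class II molecules display peptides from endocytosed proteins to CD4+ T cells and are built from an alpha and a beta chain. The invariant chain Cd74 guards the groove until lysosomal proteases degrade it, H2-DM exchanges its remnant for peptide, and the transactivator Ciita switches the class II genes on. MHC class I molecules, a heavy chain bound to beta-2 microglobulin, display cytosolic peptides that the proteasome cuts and the Tap transporter carries into the endoplasmic reticulum. Macrophages, dendritic cells and B cells carry class II constitutively, while many other cells, podocytes included, can express it after interferon-gamma.

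Values are the log2 intensity of a probe minus the log2 of the 75th percentile of its array, so 0 is the level of the array's 75th percentile and a difference of 1 is a doubling of signal. Probes entered the test if some group had all 4 of its arrays well above background. Of the members, 8 genes with 13 probes were tested, and *H2-Aa* and *Ciita*, with 3 probes, were not above background on any array. A member passed where at least 1 probe had an adjusted p under 0.05 from limma. *Tsc2* itself, the deleted gene, was lower in untreated *Tsc2*Δ*podocyte* than in *Tsc2*flox/flox podocytes by both of its probes (log2 difference -1.35, adjusted p = 0.00097, and -1.43, adjusted p = 0.00176, limma), and the position of these probes relative to the deletion was not determined. Podocyte markers were well above background, with 7 of 8 on all 16 arrays. Without treatment 4 of the 8 were higher and 4 lower in *Tsc2*Δ*podocyte* podocytes on their brightest probe (median 0.196). None passed, against 22.1% of all tested genes. Their linear signals were summed in units of the array's 75th percentile. Untreated sums ran from 84.4 to 195 in *Tsc2*Δ*podocyte* and from 59.8 to 98.5 in control samples. Treated sums ran from 86.6 to 205 and from 76.3 to 114, and *Podxl* rose, where 13.5% of all tested genes passed.

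Without treatment, 2 of the 8 tested member genes passed between the genotypes and both were higher in *Tsc2*Δ*podocyte* podocytes, *H2-Ab1* of class II and *H2-K1* of class I. Of all genes in the test, 22.1% (of 14094) passed in either direction, 11.6% were higher, and 11.3% passed with a fold of at least 1.5 as well. With rapamycin none of the 8 tested members passed, against 13.5% of all tested genes. Without treatment the members' share of calls was thus close to the share of all genes in either direction, and above the share that was higher. With 8 tested members neither comparison is precise. The size of the *H2-Ab1* difference stood out among the members, as the plot of each member by array shows.

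**Figure D1:**
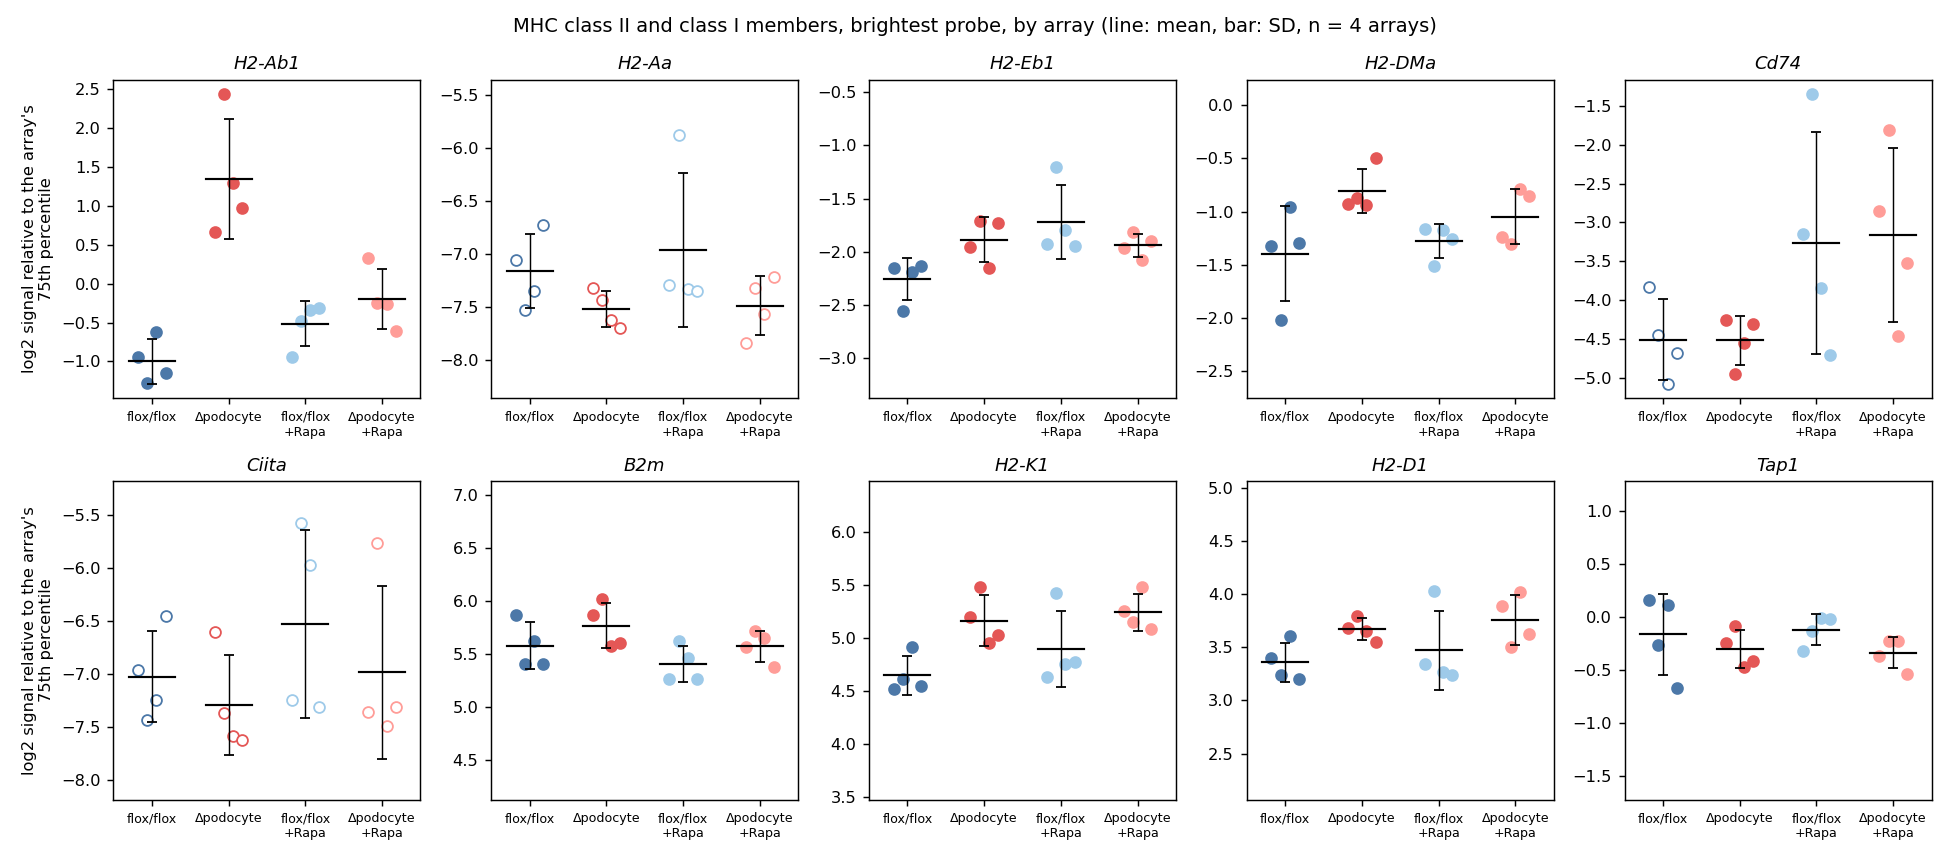
Log2 signal of the brightest probe of each of the 10 members relative to the 75th percentile of the array (y axis, scaled per gene) in the 4 groups (x axis), with 1 point per array, a line at the mean and a bar of 1 SD (n = 4). Open points mark groups in which fewer than 4 arrays were well above background, as for all groups of *H2-Aa* and *Ciita* and for *Cd74* in untreated *Tsc2*flox/flox podocytes. The untreated *Tsc2*Δ*podocyte* points of *H2-Ab1* lie above every other group of that gene.

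*H2-Ab1* encodes the beta chain of the class II molecule I-A and lies on chromosome 17 (GRCm38.p6, chr17:34263227-34269418, RefSeq). Its brightest probe (A_55_P1962747) read 0.67, 2.44, 1.30 and 0.97 in the untreated *Tsc2*Δ*podocyte* samples. In the untreated *Tsc2*flox/flox samples it read -0.94, -1.28, -0.62 and -1.15. The groups did not overlap, and replicate 2 of *Tsc2*Δ*podocyte* was the highest of all 16 arrays. The means were 1.343 ± 0.773 and -0.997 ± 0.289 (SD, n = 4), a log2 difference of 2.34 (SE 0.32, 95% interval 1.67 to 3.01, limma adjusted p = 0.00035), or 5.06-fold. The 2-sided exact permutation test gave p = 0.0286, which is the lowest value this design can reach.

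All 4 probes of *H2-Ab1* gave this difference. The other probes differed by 2.41 (A_52_P683598, adjusted p = 0.00057), 2.38 (A_55_P2146560, adjusted p = 0.000506) and 2.52 (A_55_P2741874, adjusted p = 0.000982; limma). The last was the dimmest and was well above background on 3 of the 4 untreated *Tsc2*flox/flox arrays, so its fold of 5.72 rests partly on a value near background. Across the 16 arrays the 4 probes correlated with each other at Pearson's r between 0.962 and 0.987, as a description of probes that read the same RNA. All 4 probes passed under every alternative in which they were tested, left-out arrays included, with log2 differences of the brightest probe between 1.98 and 2.57.

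**Figure D2:**
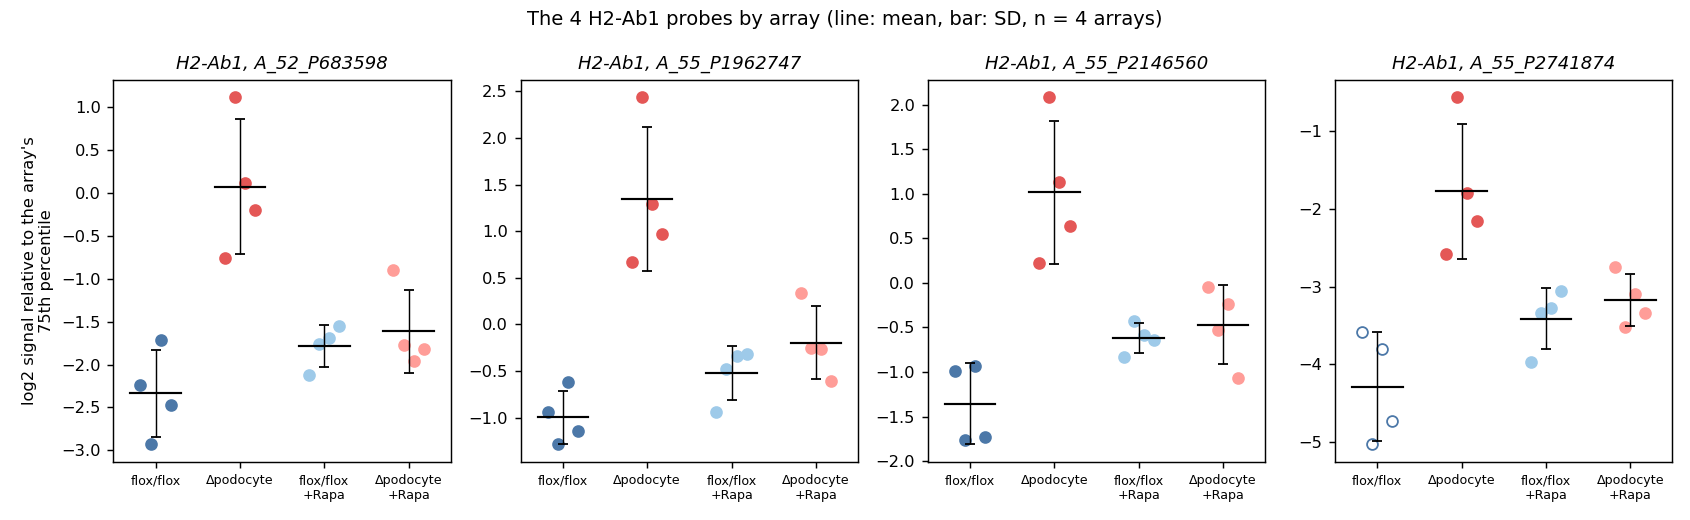
Log2 signal of each of the 4 *H2-Ab1* probes (panels) relative to the 75th percentile of the array (y axis, scaled per probe) in the 4 groups (x axis), with 1 point per array, a line at the mean and a bar of 1 SD (n = 4). Points are open where fewer than 4 arrays of a group were well above background. In every panel the untreated *Tsc2*Δ*podocyte* arrays lie above the untreated *Tsc2*flox/flox arrays and the treated groups overlap each other.

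After rapamycin the brightest *H2-Ab1* probe read 0.33, -0.25, -0.26 and -0.61 in *Tsc2*Δ*podocyte* podocytes and -0.94, -0.48, -0.34 and -0.32 in *Tsc2*flox/flox podocytes. The treated groups overlapped, with a log2 difference of 0.32 (SE 0.32, 95% interval -0.35 to 1.00, limma adjusted p = 0.566). The other probes differed by 0.17, 0.15 and 0.24, with adjusted p from 0.762 to 0.824.

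Set against the untreated samples of the same genotype, *H2-Ab1* fell by 1.54 on the log2 scale in treated *Tsc2*Δ*podocyte* podocytes (SE 0.32, limma adjusted p = 0.0255), and every treated array was below every untreated one. It was the 1 member of 8 that passed in this comparison, in which 4.3% of all tested genes passed and 1.99% were lower. The fall passed for 3 of the 4 probes, and the dimmest probe had an adjusted p of 0.0681. Over the alternatives the fall passed in 12 of 18 for the brightest probe. For A_52_P683598 it passed in 9 of 18, for A_55_P2146560 in 8 of 18 and for the dimmest, A_55_P2741874, in 1 of 17. It no longer passed for the brightest probe without *Tsc2*Δ*podocyte* + Rapamycin replicate 2 (adjusted p = 0.0599), without replicate 4 of that group (adjusted p = 0.054), without a filter on dim probes (0.0774), with only the 8 arrays compared (0.102) or by the methods' t-test after adjustment (0.159), and the direction held in each. In *Tsc2*flox/flox podocytes the probe was 0.48 higher after rapamycin (SE 0.32, adjusted p = 0.472), 0 of 8 members passed and 0.206% of all tested genes did.

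The change of the genotype difference with rapamycin, the interaction, was -2.02 for the brightest *H2-Ab1* probe (SE 0.45, 95% interval -2.97 to -1.07, unadjusted p = 0.00045, limma adjusted p = 0.598). The other 3 probes gave -2.24, -2.23 and -2.28. None of the 8 tested members passed the interaction, and 0% of all tested genes did, although 2030 of 27579 probes had an unadjusted p under 0.05. The adjusted p of the brightest probe ranged from 0.0619 to 0.927 over its alternatives. The difference between the genotype effects was thus the same in sign for all 4 probes without passing the adjustment over the whole table.

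*H2-Aa* encodes the alpha chain that pairs with the H2-Ab1 chain (chr17:34282744-34287823). Its only probe, A_52_P343306, was not well above background on any of the 16 arrays, with readings from -7.84 to -5.87. Where *H2-Ab1* was highest, in untreated *Tsc2*Δ*podocyte* podocytes, the *H2-Aa* probe read -7.32, -7.43, -7.62 and -7.69. No fold is given for it, since both genotypes were below background. *Ciita*, the class II transactivator (chr16:10480014-10531064), was also not above background on any array by either probe, A_55_P2741198 or A_66_P119948. Signals below background do not show that a transcript is absent.

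*H2-Eb1*, the beta chain of the class II molecule I-E (chr17:34305867-34316674), was well above background on all 16 arrays. It read -1.96, -1.71, -2.16 and -1.73 in untreated *Tsc2*Δ*podocyte* and -2.15, -2.56, -2.19 and -2.13 in untreated *Tsc2*flox/flox podocytes. The groups overlapped, and the log2 difference of 0.37 (SE 0.16, 95% interval 0.03 to 0.72) did not pass (limma adjusted p = 0.126). With rapamycin the difference was -0.22 (SE 0.16, adjusted p = 0.423), and the highest reading of all, -1.21, came from replicate 2 of the treated controls. Treated controls were 0.54 higher than untreated controls (SE 0.16, adjusted p = 0.145) without overlap of the arrays, and this difference passed with normexp background correction, where it was the 1 member that did.

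*H2-DMa*, the alpha chain of the peptide exchanger H2-DM (chr17:34119693-34139101), read -0.93, -0.88, -0.94 and -0.50 in untreated *Tsc2*Δ*podocyte* podocytes and -1.32, -2.02, -0.96 and -1.29 in untreated controls. Every *Tsc2*Δ*podocyte* array was above every control array, by a margin of hundredths for the closest pair. The log2 difference of 0.59 (SE 0.20, 95% interval 0.17 to 1.01, or 1.5-fold) missed the threshold at a limma adjusted p of 0.0505. It passed in 7 of 18 alternatives, with adjusted p between 0.0194 and 0.0462 there. After rapamycin the treated groups overlapped and differed by 0.23 (SE 0.20, adjusted p = 0.499).

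*Cd74*, the invariant chain, gave the noisiest readings of the tested members. It read -4.26, -4.95, -4.55 and -4.31 in untreated *Tsc2*Δ*podocyte* podocytes. In untreated controls it read -3.83, -4.45, -5.07 and -4.68, where 2 of 4 arrays were well above background. The genotypes overlapped fully, with a log2 difference of -0.01 and a 95% interval of -1.34 to 1.32 (limma adjusted p = 0.994), which includes 2-fold in either direction. The sign of this value changed with the processing. Treated *Tsc2*Δ*podocyte* samples read -2.85, -1.81, -4.46 and -3.53, and treated controls -3.14, -1.35, -3.85 and -4.71. Replicate 2 was the highest of both treated groups. The treated samples were 1.36 higher in *Tsc2*Δ*podocyte* (SE 0.62, adjusted p = 0.215) and 1.25 higher in control podocytes (SE 0.62, adjusted p = 0.34), which fell to 0.91 and 0.61 without both arrays numbered 2, a choice made after the data were seen.

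The promoters of *H2-Aa* and *H2-Eb1* are shown because class II promoters share a set of boxes read by the factors listed further on, beside which the values of these genes can be read. The sequences come from RefSeq (GRCm38.p6) and run from 250 bases before to 50 bases after the start site, 5′ to 3′ on the strand of the gene. Capitals mark matches, on either strand, to CCAAT (the NF-Y box), TGACG (the core of a cyclic AMP response element), GGGANNNCC (a kappa B-like site), TTTCNNTTT (a core of the interferon-stimulated response element) and TTCNNNGAA (a gamma-activated site). Of 32851 mouse promoter windows of the same length, 37.4%, 20.8%, 18.6%, 10.6% and 8.3% hold at least 1 match to these.

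H2-Aa, chr17:34287774-34288073, minus strand: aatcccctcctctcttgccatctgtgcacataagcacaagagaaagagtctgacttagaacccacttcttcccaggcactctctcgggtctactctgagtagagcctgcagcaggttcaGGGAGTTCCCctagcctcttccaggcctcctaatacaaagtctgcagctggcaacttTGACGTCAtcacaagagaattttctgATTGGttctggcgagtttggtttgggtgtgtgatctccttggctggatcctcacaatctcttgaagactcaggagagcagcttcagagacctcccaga
H2-Eb1, chr17:34305617-34305916, plus strand: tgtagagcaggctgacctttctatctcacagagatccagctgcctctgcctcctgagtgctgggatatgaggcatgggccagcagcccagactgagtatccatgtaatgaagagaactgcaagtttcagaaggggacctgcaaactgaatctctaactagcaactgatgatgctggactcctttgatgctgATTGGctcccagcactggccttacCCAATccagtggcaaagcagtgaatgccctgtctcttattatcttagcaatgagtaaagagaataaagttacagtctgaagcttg

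The *H2-Aa* window had 1 match to CCAAT, beginning 48 bases before the start site, and 2 matches to TGACG on opposite strands that overlap in 1 palindrome. It also had 2 overlapping matches to GGGANNNCC. The *H2-Eb1* window had 2 matches to CCAAT and none to the other 4 motifs. A match is a description of the letters and says nothing about binding in these cells. No promoter sequence is printed for *H2-Ab1* or *Ciita*.

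Among the class I members, *H2-K1* (chr17:33996012-34000619), a classical heavy chain, was the one that passed. Its brighter probe (A_51_P198434) read 5.20, 5.49, 4.95 and 5.03 in untreated *Tsc2*Δ*podocyte* podocytes and 4.52, 4.62, 4.92 and 4.55 in untreated controls. The groups did not overlap, though replicate 3 of each lay within hundredths of the other. The log2 difference was 0.52 (SE 0.17, 95% interval 0.15 to 0.88, 1.43-fold, limma adjusted p = 0.0488), and for the second probe (A_55_P2049647) 0.59 (SE 0.18, adjusted p = 0.0338). The brighter probe lost the call in 11 of 18 alternatives. Among these were quantile normalization (adjusted p = 0.0878), normexp (0.061), no filter on dim probes (0.117), the replicate number as a block (0.0509) and the methods' t-test after adjustment (0.0785). Leaving out *Tsc2*Δ*podocyte* replicate 1, 2 or 4 or *Tsc2*flox/flox replicate 1, 2 or 4 gave adjusted p between 0.0657 and 0.144. The second probe lost the call in 7 of the 18, all of them among these 11, and the direction held throughout.

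After rapamycin the brighter *H2-K1* probe read 5.26, 5.15, 5.48 and 5.09 in *Tsc2*Δ*podocyte* podocytes and 4.64, 5.43, 4.76 and 4.78 in controls. The difference was 0.34 (SE 0.17, adjusted p = 0.217), with the second probe at 0.53 (SE 0.18, adjusted p = 0.0696). Replicate 2 of the treated controls stood above its group, and without it the difference was 0.52 for the brighter probe and passed (adjusted p = 0.0358). Between treated and untreated samples the brighter probe was 0.25 higher in control and 0.08 higher in *Tsc2*Δ*podocyte* podocytes, neither of which passed (adjusted p = 0.485 and 0.826).

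*H2-D1*, the other classical heavy chain gene (chr17:35263094-35267497), read 3.68, 3.80, 3.65 and 3.55 in untreated *Tsc2*Δ*podocyte* and 3.40, 3.24, 3.60 and 3.20 in untreated control podocytes. The groups overlapped and the difference of 0.31 (SE 0.17, 95% interval -0.05 to 0.67) did not pass (limma adjusted p = 0.215). With rapamycin the values were 3.89, 3.50, 4.02 and 3.62 against 3.34, 4.03, 3.27 and 3.24. Replicate 2 of the treated controls, at 4.03, was the highest of the 16 arrays here as well. The treated difference of 0.29 (adjusted p = 0.303) became 0.47 without that array and passed (adjusted p = 0.0388).

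The promoters of *H2-K1* and *H2-D1* are set side by side because the 2 heavy chain genes are close relatives with untreated differences of the same sign. Capitals mark the same motifs.

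H2-K1, chr17:34000298-34000597, minus strand: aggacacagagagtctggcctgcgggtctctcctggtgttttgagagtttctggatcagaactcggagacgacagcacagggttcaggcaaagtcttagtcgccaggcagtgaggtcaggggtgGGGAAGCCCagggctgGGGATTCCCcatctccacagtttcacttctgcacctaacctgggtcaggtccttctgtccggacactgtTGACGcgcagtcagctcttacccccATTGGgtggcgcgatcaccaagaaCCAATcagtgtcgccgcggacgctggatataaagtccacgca
H2-D1, chr17:35262844-35263143, plus strand: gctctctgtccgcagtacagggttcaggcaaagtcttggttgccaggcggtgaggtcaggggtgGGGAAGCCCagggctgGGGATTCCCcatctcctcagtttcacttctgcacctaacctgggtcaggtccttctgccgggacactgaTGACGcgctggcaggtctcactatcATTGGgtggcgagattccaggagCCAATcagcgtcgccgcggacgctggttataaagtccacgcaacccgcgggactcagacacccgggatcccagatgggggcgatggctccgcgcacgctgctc

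Each of these windows had 3 matches to GGGANNNCC, 2 of them on opposite strands at the same letters, 2 matches to CCAAT and 1 to TGACG, in the same order. The *H2-K1* sequence is 1 of 2 overlapping windows in the table. Class I heavy chain genes resemble one another, so a probe may also read a related transcript. How far the probes here did so was not checked, since the probe sequences were not used.

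*B2m*, beta-2 microglobulin, the light chain of class I (chr2:122147687-122153082), read 5.87, 6.02, 5.58 and 5.61 in untreated *Tsc2*Δ*podocyte* and 5.87, 5.40, 5.62 and 5.41 in untreated control podocytes. The difference was 0.19 (SE 0.14, 95% interval -0.10 to 0.48, limma adjusted p = 0.341) and after rapamycin 0.17 (SE 0.14, adjusted p = 0.458). Its intervals leave out a change of 1.5-fold in either comparison, unlike those of the heavy chains. *Tap1*, a subunit of the peptide transporter (chr17:34187556-34197225), ran the other way. Its dimmer probe (A_51_P100327) read -2.98, -2.77, -3.34 and -3.35 in untreated *Tsc2*Δ*podocyte* podocytes against -2.27, -3.24, -2.54 and -2.88, a difference of -0.37 (SE 0.19, adjusted p = 0.194). After rapamycin that probe differed by -0.38 (SE 0.19, adjusted p = 0.229), with every *Tsc2*Δ*podocyte* array below every control array. Its brighter probe gave -0.14 and -0.22, with adjusted p of 0.583 and 0.426.

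**Figure D3:**
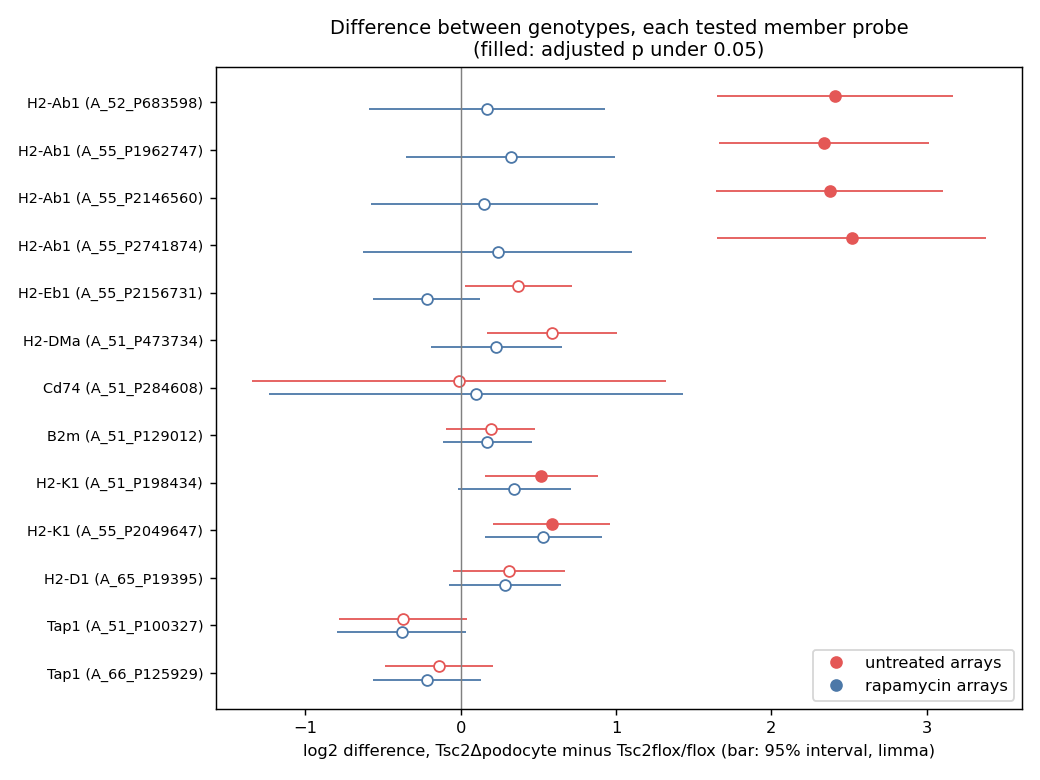
Log2 difference of *Tsc2*Δ*podocyte* over *Tsc2*flox/flox podocytes (x axis) for each of the 13 tested member probes (y axis), without treatment (red) and with rapamycin (blue), with 95% intervals from limma (n = 4 arrays a group). Filled points passed at an adjusted p under 0.05, namely the 4 *H2-Ab1* and the 2 *H2-K1* probes without treatment.

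Over brightest probes, the median untreated difference was 0.48 for the 4 tested class II members, which ranged from -0.01 to 2.34, and 0.25 for the 4 class I members, which ranged from -0.14 to 0.52, against -0.01 over all 14094 tested genes. The class II members other than *H2-Ab1* ranged from -0.01 to 0.59. With rapamycin these medians were 0.17 and 0.23, against 0.01 over all genes, and the members ranged from -0.22 to 0.32 in class II and from -0.22 to 0.34 in class I. The medians are descriptions, since members that were dim in both genotypes could not enter them.

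Among the other class II genes on the arrays, *H2-DMb1*, the beta chain that pairs with H2-DMa, passed in both genotype comparisons. It read 3.35, 3.68, 3.07 and 3.27 in untreated *Tsc2*Δ*podocyte* podocytes and 2.23, 1.93, 2.81 and 2.02 in untreated controls. The difference was 1.09 (SE 0.20, limma adjusted p = 0.00275) without treatment and 0.92 (SE 0.20, adjusted p = 0.0134) with rapamycin, without overlap in either. In contrast to *H2-Ab1* it was 0.06 lower on the treated than on the untreated *Tsc2*Δ*podocyte* arrays (adjusted p = 0.885), and its interaction was -0.17 (adjusted p = 0.915). *H2-Oa*, *H2-Ob*, *H2-Eb2* and *H2-DMb2* were not tested, being too dim in every group, and no probe was matched to *H2-Ea*.

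The factors that bind the shared class II promoter boxes (RFX, NF-Y and CREB subunits) were all measured, and of the 7 genes 0 rose and 2 fell without treatment. *Nfya* fell by 0.43 (SE 0.11, adjusted p = 0.0185), and *Creb1* by 0.46 on 1 of its 3 tested probes (SE 0.11, adjusted p = 0.0138) and by 0.31 on another (adjusted p = 0.0406). None of the 7 passed with rapamycin. The lysosomal proteins that prepare antigen and trim the invariant chain, and 2 ubiquitin ligases of class II turnover, gave 5 rises and 0 falls among 8 genes without treatment. Of all tested genes, 22.1% passed without treatment in either direction and 11.6% were higher, and 13.5% passed with rapamycin. *Ctsb*, cathepsin B, rose by 1.06 (SE 0.12, adjusted p = 0.000105) and *Lgmn*, asparagine endopeptidase, by 0.91 (SE 0.12, adjusted p = 0.000347). *Ctsl*, cathepsin L, rose by 0.64 (adjusted p = 0.00176), and *Ctss*, the cathepsin known for the last cut of Cd74, differed by 0.76 without passing (SE 0.33, adjusted p = 0.126). With rapamycin *Ctsb* (0.57, adjusted p = 0.0096) and *Lgmn* (0.80, adjusted p = 0.00251) were again higher, while *Marchf1*, which marks class II for degradation, was lower (-0.67, adjusted p = 0.0345). *Marchf8*, the other ligase, went the opposite way. It was among the rises without treatment. Its treated means were 2.831 in *Tsc2*Δ*podocyte* and 2.48 in control samples on 1 probe, and 2.911 and 2.755 on another, without passing.

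Of the class I processing and loading genes, 12 of 13 had probes and all 12 were tested, with 1 rise and 0 falls without treatment and none with rapamycin. The rise was *Psmb10*, an inducible proteasome subunit (0.32, SE 0.08, adjusted p = 0.0128). *Tapbp*, tapasin, which bridges Tap and the heavy chain, differed by 0.58 without passing (adjusted p = 0.0547). Class I relatives gave 6 rises and 0 falls of 14 tested genes without treatment and 2 rises with rapamycin. Among all tested genes 11.6% were higher without treatment, and 13.5% passed in either direction with rapamycin. *H2-T23* rose by 0.68 (adjusted p = 0.019) and *H2-Q2* by 0.53 (adjusted p = 0.027). *H2-Q7* passed on 1 of 3 probes (1.74, SE 0.50, adjusted p = 0.0291), and with rapamycin on 2 of 3 (2.46, adjusted p = 0.00951, and 0.80, adjusted p = 0.0226). These genes resemble each other and *H2-K1*, and their probes may read the same transcripts.

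*Ifng*, encoding interferon-gamma, was not tested, being too dim in every group. *Irf1*, a transcription factor of its pathway, differed by 0.48 on 1 probe (adjusted p = 0.0894). With rapamycin *Socs1*, an inhibitor of the pathway, was lower (-0.85, adjusted p = 0.0278). Of 12 tested interferon-induced genes, *Gbp2* (0.58, adjusted p = 0.0269) and *Oas1a* (1.70, SE 0.51, adjusted p = 0.0343) rose without treatment and *Irgm1* fell (-0.92, adjusted p = 0.000877). On brightest probes 10 of the 12 were higher without treatment and 2 lower, with a median difference of 0.567. With rapamycin 9 were higher and 3 lower, with a median of 0.131. *Irgm1*, again lower, was the 1 that passed there, against 13.5% of all tested genes. Among 5 tested genes of co-stimulation and adhesion, the ligands *Tnfsf9* (1.15, adjusted p = 0.000531) and *Cd274*, also known as PD-L1 (0.72, adjusted p = 0.0222), rose. Without treatment 22.1% of all tested genes passed, and 11.6% were higher. *Cd86* was too dim to be tested.

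**Figure D4:**
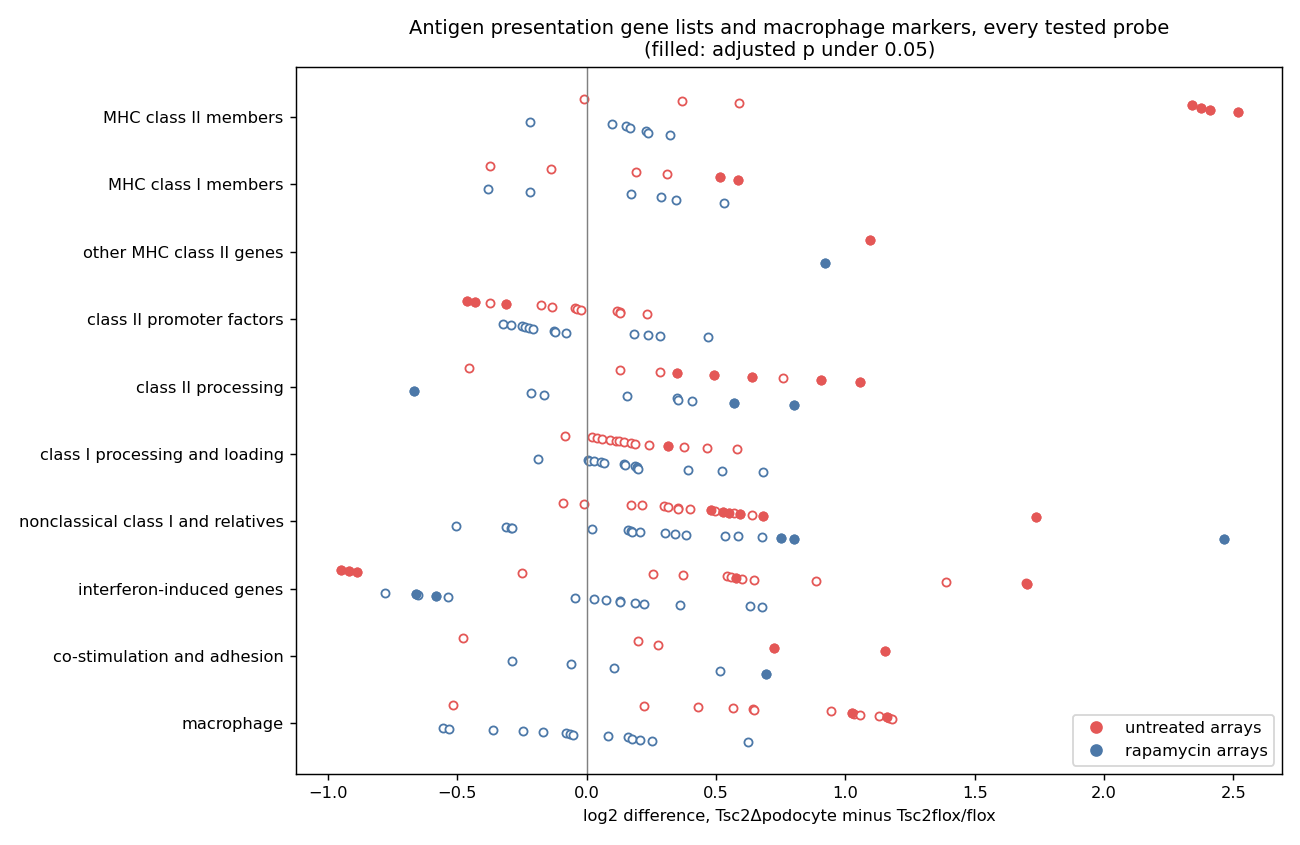
Log2 difference of *Tsc2*Δ*podocyte* over *Tsc2*flox/flox podocytes (x axis) for every tested probe of the antigen presentation lists and the macrophage markers (y axis), without treatment (red) and with rapamycin (blue). Filled points passed at an adjusted p under 0.05 (limma, n = 4 arrays a group). The 4 *H2-Ab1* probes lie furthest to the right without treatment, and an *H2-Q7* probe with rapamycin.

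Markers of other cell types are given beside these values. Of the 12 macrophage markers, all tested and 11 above background on all 16 arrays, 11 were higher in untreated *Tsc2*Δ*podocyte* than in untreated control podocytes on their brightest probe, with a median difference of 0.99. *Cd68*, a lysosomal glycoprotein, was the 1 that passed (1.16, adjusted p = 0.0127, and 1.03 on its second probe, adjusted p = 0.019). With rapamycin 5 of 12 were higher and the median was -0.06, and 0 of 12 passed there or in the test of the difference between the 2 genotype effects. Of all tested genes 22.1% passed without treatment, 13.5% with rapamycin and 0% in the test of that difference. The summed linear signal of the list ran from 12.7 to 20.0 in untreated *Tsc2*Δ*podocyte* and from 8.95 to 18.1 in untreated control samples, and from 12.3 to 19.1 and 11.8 to 19.1 with rapamycin, in units of the 75th percentile of the array. *Itgam*, the 1 marker that was lower, weighs most in the untreated sums. Its mean of 2.046 in untreated *Tsc2*Δ*podocyte* and 2.563 in untreated control samples was the highest of the list in each. Array by array the order differed. *Tsc2*Δ*podocyte* replicate 2, highest in *H2-Ab1*, had the lowest mean marker level of its group (-0.13, each gene centred over the 16 arrays), and replicate 4 had the highest (0.89). Control replicate 1, with a mean marker level of 0.27 like *Tsc2*Δ*podocyte* replicate 1, read -0.94 in *H2-Ab1* against 0.67. The part of macrophages in the *H2-Ab1* difference was not tested.

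Some markers listed for 2 other glomerular cell types also differed between the untreated genotypes, and which cells their RNA came from was not tested. All 4 mesangial markers were higher in *Tsc2*Δ*podocyte* podocytes, with a median difference of 0.83, and *Des*, the intermediate filament desmin (1.76, limma adjusted p = 0.000539), and *Itga8*, an integrin subunit (1.42, adjusted p = 0.0104), rose. None of the 5 parietal epithelial markers was higher, with a median of -0.70, and the transcription factor gene *Pax8* (-1.47, adjusted p = 0.000523) and the cadherin gene *Cdh6* (-1.64, adjusted p = 0.00146) fell. Of all tested genes 22.1% passed in this comparison and 11.6% were higher. *Pdgfrb* (mean 2.186 in untreated *Tsc2*Δ*podocyte* and 2.125 in untreated control samples) and *Acta2* (8.3 and 8.054 on its brightest probe) did not pass. *Acta2* was the brightest mesangial marker and weighs most in the sums. Mesangial sums ran from 287 to 395 in *Tsc2*Δ*podocyte* and from 259 to 297 in control samples, and parietal epithelial sums from 29.9 to 113 and from 65.6 to 155. With rapamycin *Des* again rose (1.28, adjusted p = 0.00872), while *Pax8* (-1.14, adjusted p = 0.00668) and *Cdh6* (-1.90, adjusted p = 0.002) again fell. All 9 genes were above background on all 16 arrays, and their part in the member differences was not tested.

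Of 8 dendritic cell markers *Flt3*, *Clec9a* and *Ccr7* were above background on no array and 2 were tested. *Itgax*, CD11c, was well above background on 9 of the 16 arrays and on none of the 4 untreated *Tsc2*Δ*podocyte* arrays, and its values are given no comparison. Of the B cell markers *Cd79a* and *Ms4a1* were above background on no array, while *Pax5* was above it on 11 of the 16 and is given no comparison. Of the 5 T cell markers *Cd3d*, *Cd3g* and *Cd8a* were above background on no array, while *Cd3e* and *Cd4* each had 1 probe above it on all 16. These differed between the untreated genotypes by 0.15 (limma adjusted p = 0.479) and 0.02 (adjusted p = 0.933). Dendritic cell sums ran from 0.179 to 0.449 and from 0.231 to 0.293 in the untreated groups, and B cell sums from 0.0852 to 0.104 and from 0.0503 to 0.199, in *Tsc2*Δ*podocyte* and control samples. Endothelial sums ran from 3.13 to 5.9 in treated and from 6.84 to 60.9 in untreated *Tsc2*Δ*podocyte* samples, without overlap. In control samples they ran from 3.73 to 10.2 treated and from 5.67 to 80.3 untreated, and overlapped. On brightest probes, 7 of the 8 endothelial markers were lower on the treated arrays in each genotype. The median log2 difference was -2.085 in *Tsc2*Δ*podocyte* and -2.0 in control samples. None of the 8 endothelial markers passed in either treated-against-untreated comparison, and their part in the treated-against-untreated values was not tested.

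2 arrays stood out in several members at once. Replicate 2 of the treated controls had the highest reading of the 16 arrays in *Cd74*, *H2-Eb1* and *H2-D1*, and its mean levels of macrophage markers (0.72) and interferon-induced genes (0.96) were the highest of its group. Replicate 2 of untreated *Tsc2*Δ*podocyte* was the highest of the 16 in *H2-Ab1*, *B2m* and *H2-K1*, with the highest mean of the interferon-induced genes (1.01) but not of the macrophage markers. Without that array *H2-Ab1* still passed, with *H2-K1* at 0.41 (adjusted p = 0.144). The summed podocyte marker signal of that array, 195, was the highest of its group. For replicate 2 of the treated controls it was 114, also the highest of its group. The part of podocyte RNA in these readings was not tested.

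**Figure D5:**
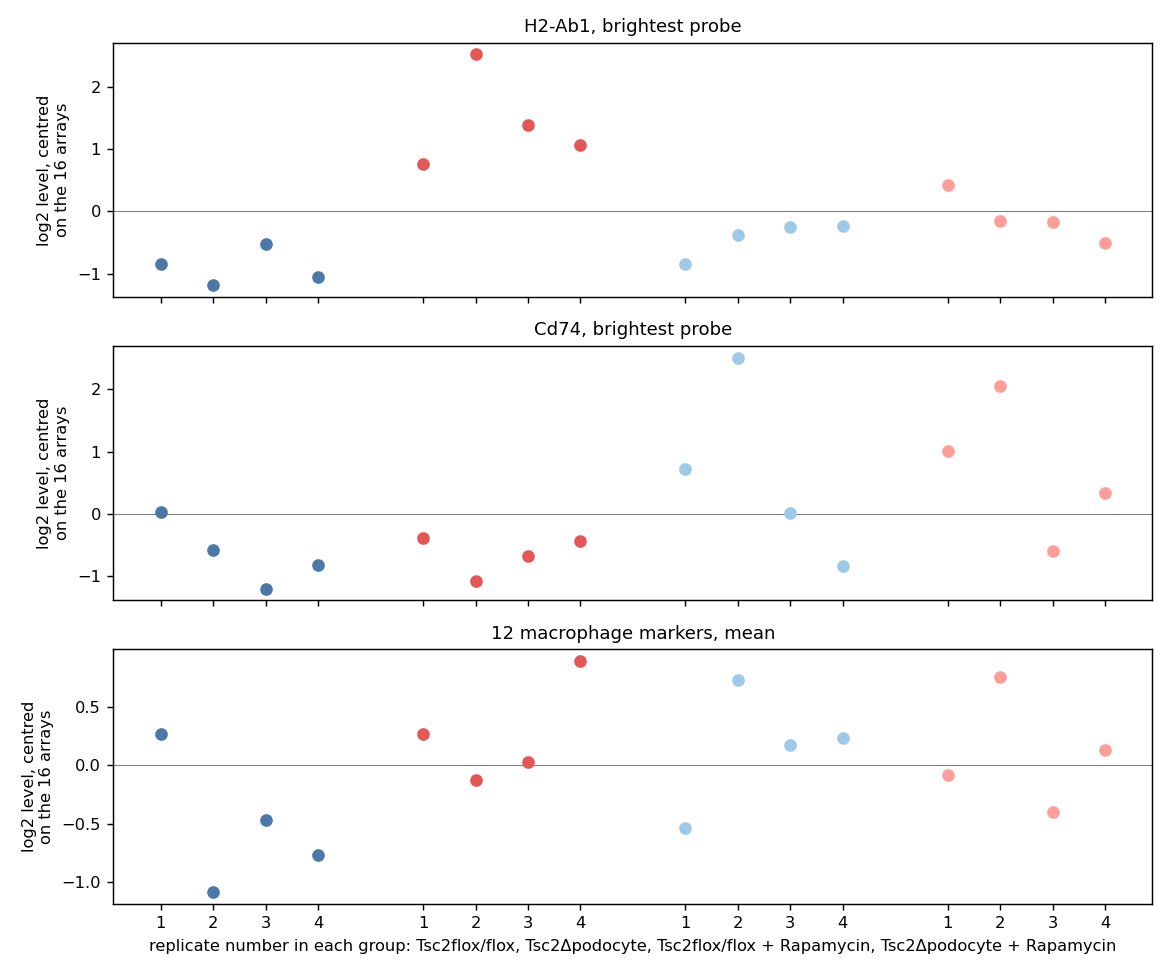
Log2 level centred on the 16 arrays (y axis) of *H2-Ab1* (top), *Cd74* (middle) and the mean of 12 macrophage markers (bottom) on each array (x axis, replicates 1 to 4 of *Tsc2*flox/flox, *Tsc2*Δ*podocyte*, *Tsc2*flox/flox + Rapamycin and *Tsc2*Δ*podocyte* + Rapamycin from left to right). *Cd74* and the markers are high on replicate 2 of both treated groups, where *H2-Ab1* is not, and *H2-Ab1* is high on all 4 untreated *Tsc2*Δ*podocyte* arrays, where *Cd74* is not.

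The genes outside the members whose pattern was most like the mean of the 4 tested class II members over the 16 arrays were *Unc93b1* (Pearson's r = 0.915), *Oit3* (0.88), *Cpne5* (0.869), *Rab11a* (0.867) and *Aldh1l1* (0.859). The members themselves correlated with their mean at 0.642 (*H2-Ab1*), 0.82 (*H2-Eb1*), 0.404 (*H2-DMa*) and 0.566 (*Cd74*). Of these, *H2-Eb1* followed the mean most closely and *H2-DMa* least. For class I the most similar were *Dcp1b* (0.897), *Gm11127* (0.883), *Irgm2* (0.875), *H2-Q2* (0.873) and *Igtp* (0.866), while *H2-K1* (0.873), *H2-D1* (0.87), *B2m* (0.768) and *Tap1* (0.393) made up the mean. These are descriptions over arrays that share groups and slides, and were picked from 14094 genes as the highest.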

How the data were processed

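The authors hybridised Cy3-labelled RNA of 16 podocyte samples to Agilent SurePrint G3 mouse arrays. The deposited scanner files hold, for each spot, an intensity that Agilent Feature Extraction 10.7.3.1 had background-subtracted, on a linear scale. The deposited series table holds log2 values that the authors derived from these, shifted to the 75th percentile of each array and centred on the median of each probe. It correlated with the values used here at r of at least 0.9997 and served as an alternative.

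Here the log2 intensity minus the log2 75th percentile of the array was used. The log2 values of repeated spots of a probe were averaged without spots marked as outliers, and control spots were left out. No spot was saturated. The 75th percentile ran from 348.6 to 467.7 intensity units, and 28696 to 32918 spots per array were well above background. The 16 arrays, 4 a group, limit the precision. Probes were named through RefSeq accessions (GRCm38.p6, 32994 of 56605 matched). Over all 16 arrays, 4 group means were fitted to 27579 tested probes in limma 3.58.1 (R 4.3.3), with Benjamini-Hochberg adjustment within each of 5 comparisons, and was tested on simulated data. Between arrays, r over tested probes was 0.978 to 0.992 within groups and 0.951 to 0.989 between groups. Exact permutation tests, intervals and lists were computed in Python 3.11.15.

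All 10 members are described with every probe, and up to 4 genes with the smallest p in each genotype comparison of the other lists could be named, with the markers that were dark on all arrays and the 5 genes most like each class. Members and lists were chosen with earlier results of these data known. *Ctss*, *Marchf8*, *Tapbp*, *Irf1*, *Cd86* and the arrays that stood out were picked out after their values were seen. Alternatives were quantile normalization, normexp (offset 50), other filters on dim probes, the deposited values, a fold of at least 1.5, a trended and robust prior, a replicate block, only the arrays compared, the t-test of the general statistics section and each array left out. A simulated or set test of the lists was not run. Some genes and results are not reported here.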

Additional observations from a re-analysis of the deposited data

Results flagged for a closer look

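Of 52 groups of 4 arrays over the 13 tested member probes, 5 held an array that stood apart from the other 3 by Dixon's test at the 95% level, where chance gives about 1 in 20. The highest treated *Tsc2*Δ*podocyte* array of *H2-Ab1* probe A_52_P683598 read -0.90. The lowest untreated *Tsc2*flox/flox array of *H2-Eb1* read -2.56. The highest untreated *Tsc2*Δ*podocyte* array of *H2-DMa* read -0.50. In treated *Tsc2*flox/flox podocytes, replicate 2 stood apart in both *H2-K1* (3.47 on probe A_55_P2049647) and *H2-D1* (4.03). No member passed the test of a difference between the untreated and the rapamycin genotype effects.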

How the results depend on the processing

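Of 380 values of 21 member differences recomputed under the alternatives, 339 kept direction and side of the threshold, 17 lost the call, 12 gained it and 12 changed sign. All 12 sign changes belong to *Cd74*, whose untreated genotype difference was 0.14 with quantile normalization, 0.15 with normexp and 0.02 in the deposited values, and -0.20 to 0.22 with single arrays left out. Its rapamycin genotype difference was -0.06 (-0.055) with normexp and -0.38 to 0.74 with single arrays left out. The cause was not tested. Between untreated genotypes 1 member passed in place of 2 without a filter on dim probes or by the methods' t-test, and 1 to 3 with single arrays left out. With quantile normalization, normexp, a filter for probes above background on all 16 arrays, the deposited values or the trended prior 3 passed, *H2-DMa* being the third. Without both treated arrays numbered 2 it was 3 with *H2-Eb1*. Between rapamycin genotypes 0 to 2 passed with single arrays left out, and 2 without both treated arrays numbered 2, an alternative chosen after the data were seen. Between treated and untreated controls 1 passed with normexp in place of 0. Between treated and untreated *Tsc2*Δ*podocyte* podocytes 0 passed in place of 1 without a filter on dim probes, with only the 8 arrays compared, by the methods' t-test and without both treated arrays numbered 2, and 0 to 1 with single arrays left out. The fold threshold of 1.5 changed no count. Without treatment *H2-K1* met it only on its second probe, at the edge (log2 difference 0.586, 1.5-fold), and not on its brighter probe (1.43-fold).

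With the replicate number as a replicate block, 3 members passed between untreated genotypes in place of 2, since *H2-DMa* passed (adjusted p = 0.0254), while the brighter *H2-K1* probe missed (0.0509). Counts in the other 4 comparisons stayed at 0 or 1. Deviations of same-numbered arrays correlated at -0.30 to -0.01 untreated and at -0.02 to 0.46 treated. Of the treated pairs 3 of 4 were over 0.1, and since not every pair was, the numbers were not taken to pair the samples. Readings of *H2-Aa*, *Ciita* and, in part, *Cd74* lie near background, which limits what can be said of them.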
